A study of Mus musculus with 6 samples.

Results

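The mouse genes of MHC class II antigen presentation were taken as 7 genes matched by symbol among the 54146 genes of the deposited count tables. They were the chains of the surface molecules (H2-Aa, H2-Ab1 and H2-Eb1), the chains of the peptide exchange factor H2-DM (H2-DMa and H2-DMb1), the invariant chain Cd74 and the transactivator Ciita. All 7 were found, and all passed the filter on low counts. The study sequenced RNA of whole kidneys from B6C3F1/J mice at postnatal day 84. There were 3 libraries labelled Tfam f/f and 3 labelled KspCre Tfam f/f, called Cre-labelled here. Both groups carried floxed alleles of Tfam, which encodes a factor that packages and transcribes mitochondrial DNA. The KspCre label names a Cre recombinase driven by the promoter of kidney-specific cadherin, which is active in tubule epithelium, so a deletion in a whole kidney would be seen against RNA of cells without Cre. The series title names mitochondrial damage, the STING pathway and chronic kidney disease. The labels do not say that each library came from a separate animal. The p-values below therefore set the difference between the labels only against the variation among these libraries, and that variation may be technical.

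MHC class II molecules display peptides from endocytosed proteins to CD4 T cells. The alpha and beta chains pair in the endoplasmic reticulum, where the invariant chain Cd74 fills their groove, and in endosomes proteases trim Cd74 until H2-DM exchanges the last fragment for a peptide. Dendritic cells, B cells and macrophages express these genes throughout, and other cells, tubule epithelium included, can be brought to do so by interferon gamma through Ciita. Ciita does not bind DNA itself. It is recruited by the RFX complex on the X box and by NF-Y on the CCAAT motif of the Y box, which lie close together upstream of class II genes.

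The promoter sequences are shown for the letters of these boxes. Whether they had a part in the differences between the labels was not tested. RefSeq promoters of the build GRCm38.p6 were matched for H2-Aa, H2-Eb1, H2-DMb1 and H2-DMa. H2-Ab1, Cd74 and Ciita had no entry. H2-Aa is shown from 150 bases before its start up to the start, on the minus strand at chr17:34287824-34287973. H2-Eb1 is shown over the same 150 bases on the plus strand at chr17:34305717-34305866, and H2-DMb1 over 28 bases on the plus strand at chr17:34153091-34153118. Capitals mark the letters GNAAC and ACNGATG, which belong to the X box region, and TGATTGG, which holds the reverse complement of CCAAT.
H2-Aa: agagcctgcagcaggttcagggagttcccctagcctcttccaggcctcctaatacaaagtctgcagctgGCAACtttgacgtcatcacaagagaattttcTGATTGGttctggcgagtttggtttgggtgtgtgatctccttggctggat
H2-Eb1: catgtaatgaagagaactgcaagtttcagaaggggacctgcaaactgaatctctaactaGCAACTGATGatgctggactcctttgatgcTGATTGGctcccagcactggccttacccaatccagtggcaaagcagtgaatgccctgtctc
H2-DMb1: tacctaGTAACTGATGatgctaggctga

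The letters GNAAC followed by TGATTGG after a gap of 12 to 35 bases, searched on both strands, were found in the 300-base promoters of H2-Aa, H2-Eb1 and H2-DMb1. The same pair of words was present in 217 of 32851 promoters (0.661%), and its letters were chosen after the sequences had been seen. The stricter order of ACNGATG followed by ATTGG at that gap was present in H2-Eb1 and H2-DMb1 and in 60 promoters in all (0.183%). ATTGG alone, which is part of TGATTGG, occurred in 37.4% of promoters and ACNGATG alone in 9.85%. GNAAC and ACNGATG overlap in H2-Eb1 and in H2-DMb1. The promoters of the 2 annotated H2-DMa starts held neither pair. Among the related class II genes, H2-Eb2 held both pairs, H2-DMb2 held the stricter pair, and H2-Oa and H2-Ob held the GNAAC pair.

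The level of Tfam went against the labels. It stood at 30.3, 33.6 and 23.2 normalized CPM (counts scaled by library size and TMM factor) in Tfam f/f-labelled replicates 1, 2 and 3 and at 63.1, 63.4 and 61.3 CPM in the Cre-labelled ones. All 3 libraries labelled with the Cre were therefore higher, by 2.15-fold (log2 1.11, SE 0.14, adjusted p = 0.00107, edgeR). Every direction below is a difference between the labels as deposited and not between verified genotypes. Total counts ran from 19024208 to 34821537 per Tfam f/f-labelled library and from 30348281 to 48899266 per Cre-labelled library. These ranges overlapped, but the mean depth differed with the label, at 25922500 against 42621800 counts. Of 17308 genes tested, 8000 (46.2%) passed an adjusted p of 0.05, of which 53.87% were higher in the Tfam f/f-labelled libraries. With scaling by total counts only, which put the median log2 difference of all genes (Cre-labelled minus Tfam f/f-labelled) at -0.46 in place of -0.03, 10192 genes passed and 83.52% were higher there.

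All 7 class II genes were higher in the Tfam f/f-labelled libraries, by 2.07-fold for Ciita to 3.98-fold for Cd74. The median difference of the members was 1.63 on the log2 scale, against 0.03 over all genes tested. All 7 of 7 passed the test, where 24.9% of all genes were called in that direction. In all 7 the 2 groups did not overlap, and the background for genes without overlap in that direction was 32.1%. In whole kidney a larger number of class II-positive cells and more class II RNA per cell cannot be told apart.

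**Figure D1:**
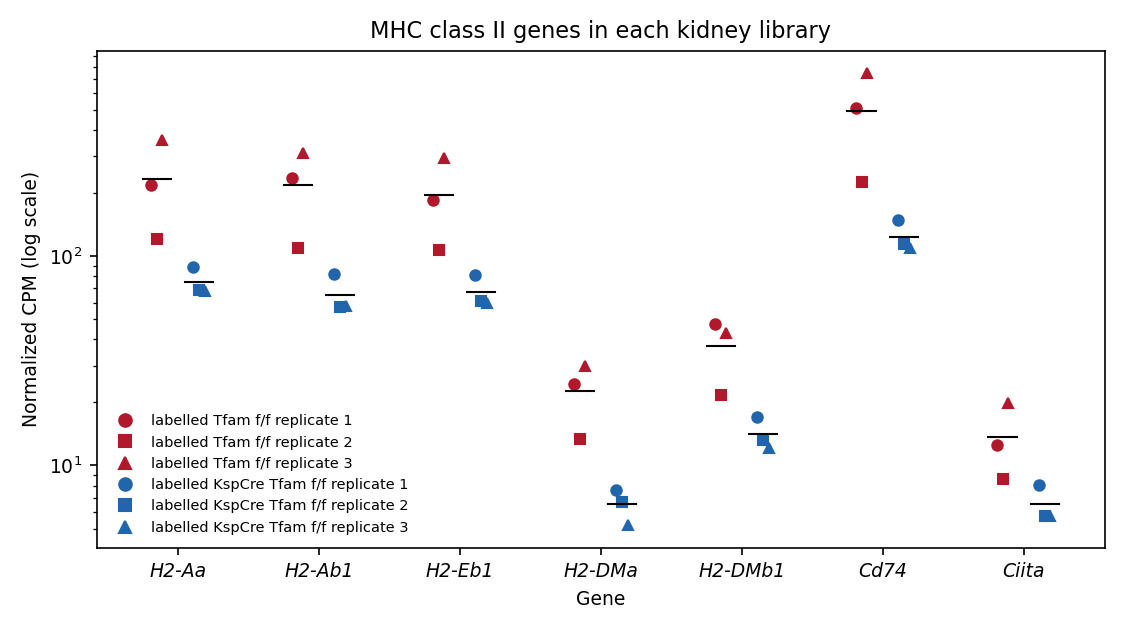
Normalized CPM on a log scale for the 7 class II genes in each of the 6 libraries, with red symbols for labelled Tfam f/f, blue symbols for labelled KspCre Tfam f/f and black bars for the mean of each group. Every red symbol lies above every blue symbol of its gene, and for Cd74 the red symbols run from 225 to 745 CPM against 109 to 148 CPM.

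H2-Aa (ENSMUSG00000036594.14, chromosome 17, 34282744 to 34287823, minus strand, build mm10) encodes the alpha chain of the A molecule. It stood at 219, 121 and 360 CPM in Tfam f/f-labelled replicates 1, 2 and 3 and at 89.1, 69.0 and 67.9 CPM in Cre-labelled replicates 1, 2 and 3. The libraries of the second label lay close together and the 3 of the first were all above them, with replicate 3 the highest and replicate 2 the nearest to the other group. The means were 233 ± 120 and 75.3 ± 12.0 CPM (SD, n = 3 each). The fitted difference was 3.09-fold (95% interval 1.72 to 5.57, log2 1.63, SE 0.36), with an edgeR adjusted p of 0.0102.

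H2-Ab1 (ENSMUSG00000073421.5, chromosome 17, 34257689 to 34269419, plus strand) encodes the beta chain that pairs with the product of H2-Aa. Its levels were 237, 110 and 311 CPM in the Tfam f/f-labelled libraries and 81.7, 57.4 and 57.5 CPM in the Cre-labelled ones. Replicates 3 and 1 of the first label stood well above all others, while replicate 2 lay nearest to the second label without reaching it. The difference was 3.34-fold (1.86 to 6.002, log2 1.74, SE 0.36, adjusted p = 0.00785). Per exon length, the alpha chain stood at 0.717 ± 0.082 of the beta chain in the Tfam f/f-labelled libraries and at 0.783 ± 0.040 in the others (SD, n = 3 each), and these ratios overlapped between the labels.

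H2-Eb1 (ENSMUSG00000060586.10, chromosome 17, 34305867 to 34316674, plus strand) encodes the beta chain of the E molecule. It was measured at 185, 107 and 293 CPM against 81.1, 61.1 and 59.9 CPM in the same order of libraries. The groups were again apart, with Tfam f/f-labelled replicate 2 and Cre-labelled replicate 1 nearest to each other. The difference was 2.90-fold (1.67 to 5.03, log2 1.53, SE 0.34, adjusted p = 0.00999). The gene listed for its partner, H2-Ea-ps (chromosome 17, 34341959 to 34344645), had 0 counts in all 6 libraries, which allows up to 3 counts, or 0.0704 to 0.126 normalized CPM depending on the library (counting error only). As background, the E alpha chain is silent in mice of the b haplotype such as C57BL/6 and made in C3H mice, the other parent strain of a B6C3F1 cross. Whether reads of a C3H allele would have been counted at this entry was not tested.

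H2-DMa (ENSMUSG00000037649.9, chromosome 17, 34119541 to 34139101, plus strand) encodes the alpha chain of H2-DM. Its levels were 24.4, 13.4 and 29.9 CPM in the Tfam f/f-labelled libraries and 7.65, 6.71 and 5.18 CPM in the others. The lowest library of the first label was above the highest of the second, and the difference was 3.44-fold (2.13 to 5.55, log2 1.78, SE 0.30, adjusted p = 0.00332). Of its 3448 exon bases, 360 overlap exons of Brd2 on the opposite strand. The kit marked strand, but the strand setting of the counting was not given in the sources used here.

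H2-DMb1 (ENSMUSG00000079547.3, chromosome 17, 34153072 to 34160230, plus strand) encodes the beta chain of H2-DM. It reached 47.4, 21.8 and 42.7 CPM in the Tfam f/f-labelled libraries and 17.1, 13.3 and 12.1 CPM in the others. Replicate 1 was the highest here, unlike in the other 6 members, and the groups did not overlap. The difference was 2.62-fold (1.65 to 4.16, log2 1.39, SE 0.29, adjusted p = 0.00750).

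H2-DMb2, which encodes a second beta chain of H2-DM and is not among the 7, lies next to H2-DMb1 on chromosome 17. It stood at 15.5, 3.34 and 30.1 CPM in the Tfam f/f-labelled libraries and at 1.57, 0.941 and 1.11 CPM in the others. All 3 libraries of the first label were higher, and they were spread widely, with replicate 2 close to the other group and replicate 3 far from it. The difference was 13.3-fold (3.95 to 44.9, log2 3.74, SE 0.75, adjusted p = 0.00699). It was 7.67-fold without Tfam f/f-labelled replicate 3, and the call was lost with limma voom (8.56-fold, adjusted p = 0.0515) and without the filter on low counts (adjusted p = 0.0572), the alternatives running from 5.98e-05 to 0.0572. Of all 50-base windows of H2-DMb1 transcripts, 22.7% were found unchanged in those of H2-DMb2, as were 4.71% of 150-base windows. How reads that fit both copies were counted was not given, so both values are uncertain. With their counts added together, the pair stood at 62.9, 25.2 and 72.8 CPM against 18.7, 14.2 and 13.2 CPM, a difference of 3.47-fold (log2 1.80, SE 0.37, adjusted p = 0.00765). This sum was chosen after seeing the data.

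Cd74 (ENSMUSG00000024610.14, chromosome 18, 60803848 to 60812652, plus strand) encodes the invariant chain. Its levels were 507, 225 and 745 CPM in the Tfam f/f-labelled libraries and 148, 114 and 109 CPM in the Cre-labelled ones. Replicate 3 was again the highest and replicate 2 the lowest of the first label, and even replicate 2 was above all 3 libraries of the second. The means were 493 ± 260 and 124 ± 21.2 CPM (SD, n = 3 each), and the difference was 3.98-fold (2.08 to 7.61, log2 1.99, SE 0.40, adjusted p = 0.00688).

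Ciita (ENSMUSG00000022504.10, chromosome 16, 10480059 to 10528418, plus strand) encodes the transactivator. It stood at 12.5, 8.58 and 19.9 CPM in the Tfam f/f-labelled libraries and at 8.07, 5.77 and 5.76 CPM in the others. The groups nearly met, replicate 2 of the first label being just above replicate 1 of the second. The difference was 2.07-fold (1.27 to 3.40, log2 1.05, SE 0.31, adjusted p = 0.0255). The call was lost without Tfam f/f-labelled replicate 1 (adjusted p = 0.0606), without Cre-labelled replicate 2 (0.0915), without Cre-labelled replicate 3 (0.0884) and with limma voom (0.0501). Over all alternatives the adjusted p of Ciita ran from 0.00503 to 0.0915. Of its 9535 exon bases, 329 overlap exons of Dexi on the opposite strand.

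**Figure D2:**
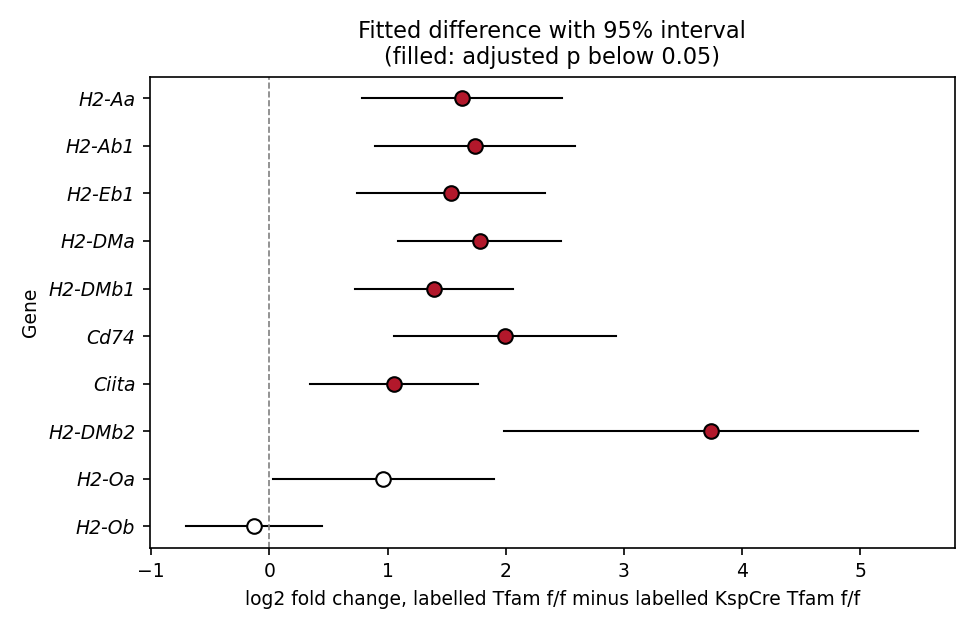
Fitted log2 differences, labelled Tfam f/f minus labelled KspCre Tfam f/f, with 95% intervals for the 7 members and the 3 other class II genes tested. Filled points passed an adjusted p of 0.05, the intervals of all 7 members lie to the right of 0, and the points of H2-Oa and H2-Ob are open.

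The other genes of the class II region were less uniform. H2-Oa and H2-Ob encode the chains of H2-O, an inhibitor of H2-DM found mainly in B cells. H2-Oa was measured at 1.06, 1.16 and 1.47 CPM in the Tfam f/f-labelled libraries and at 0.446, 1.01 and 0.381 CPM in the others, and it did not pass the test (adjusted p = 0.0835). It passed without Cre-labelled replicate 2 (2.90-fold, adjusted p = 0.0249) and with scaling by total counts only (2.64-fold, adjusted p = 0.0191), and over all alternatives the adjusted p ran from 0.0191 to 0.238. H2-Ob stood at 1.58, 1.92 and 1.89 CPM against 2.44, 1.57 and 1.87 CPM, and its libraries overlapped (adjusted p = 0.696). H2-Eb2 had 4 to 11 counts per Tfam f/f-labelled library and 1 to 5 per Cre-labelled library, and it was below the filter.

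Among the Tfam f/f-labelled libraries the members kept nearly one order. Replicate 3 was the highest and replicate 2 the lowest for 6 of 7 members (85.7%), as it was for 2245 of the 4310 genes called higher under that label (52.1%). Levels between genes were compared per exon length, as TPM (counts per exon base, scaled to the same sum in every library), computed from the counts. In TPM all 6 libraries ranked the members alike, with Cd74 at the top, followed by H2-Eb1, H2-Ab1, H2-Aa, H2-DMb1, H2-DMa and Ciita. Cd74 averaged 1096 ± 673 TPM in the Tfam f/f-labelled libraries and 172 ± 31.7 TPM in the others, which placed it at rank 94 and rank 680 of all genes. Ciita averaged 5.33 ± 2.79 and 1.60 ± 0.35 TPM. The members together took 0.200%, 0.0956% and 0.343% of all TPM in the Tfam f/f-labelled libraries and 0.0470%, 0.0344% and 0.0341% in the others. These shares did not overlap. TPM takes no TMM factor, and these factors were 1.14, 1.09 and 1.25 in the Tfam f/f-labelled libraries and 0.871, 0.852 and 0.864 in the others. For the same gene, TPM sets the Tfam f/f-labelled libraries higher against the others than normalized CPM does. Nfyb, a subunit of NF-Y, averaged 17.4 and 17.3 CPM but 12.5 and 7.97 TPM. The fitted folds above, and not the TPM, compare the labels. Over the Tfam f/f-labelled libraries the TPM ranges of the neighbours Cd74, H2-Eb1, H2-Ab1 and H2-Aa overlapped from each to the next, and over the Cre-labelled ones those of H2-Eb1, H2-Ab1 and H2-Aa did. The ranges of H2-DMb1, H2-DMa and Ciita stood clear of their neighbours under both labels.

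**Figure D3:**
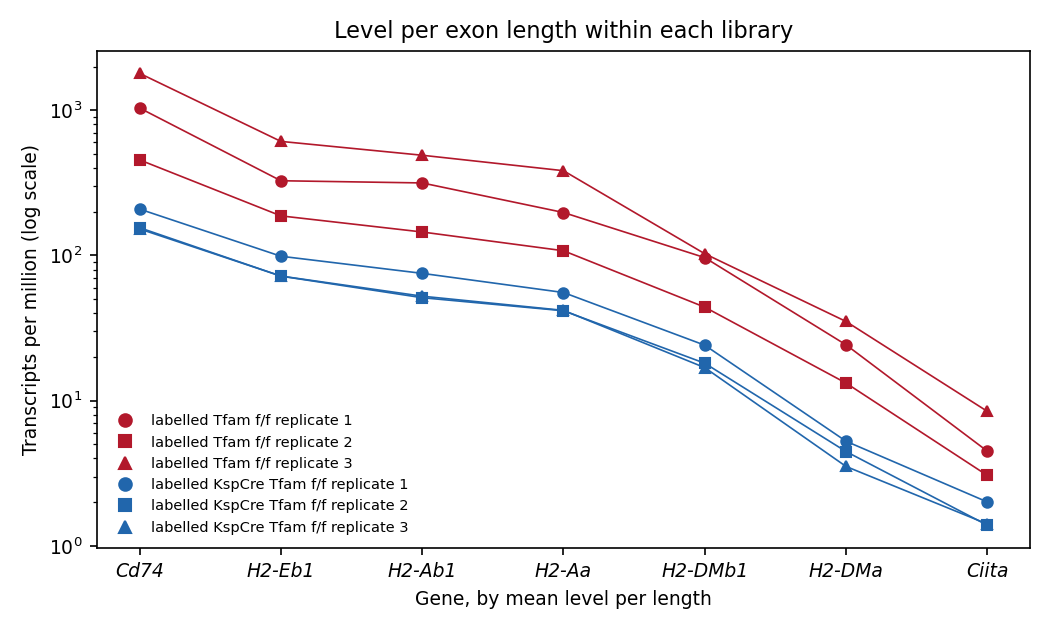
TPM on a log scale for the 7 members in order of their mean level, with 1 line per library, red for labelled Tfam f/f and blue for labelled KspCre Tfam f/f. No line rises from left to right, and the red lines run above the blue ones at every gene.

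Ratios between members described whether they moved in step. Per exon length, Cd74 stood at 3.36 ± 0.27 times H2-Ab1 in the Tfam f/f-labelled libraries and at 2.90 ± 0.13 times in the others, without overlap. H2-Eb1 per H2-Ab1 went the other way, at 1.19 ± 0.14 against 1.37 ± 0.05, and H2-DMa per H2-DMb1 was 0.297 ± 0.045 against 0.224 ± 0.020 (SD, n = 3 each for all these ratios). Neither pair of ratios overlapped between the labels. With 3 libraries against 3, an exact two-sided permutation test cannot go below p = 0.1, so no p is given for these ratios.

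Ciita was compared with the genes it serves by dividing their CPM by its own. H2-Aa stood at 17.5, 14.1 and 18.1 times Ciita in the Tfam f/f-labelled libraries and at 11.04, 12.0 and 11.8 times in the others. Cd74 stood at 40.7, 26.3 and 37.5 times against 18.3, 19.7 and 18.98 times. For H2-Aa, H2-Ab1, H2-Eb1, H2-DMa and Cd74 the ratio was higher in every library labelled Tfam f/f, while for H2-DMb1 the ratios overlapped, at 3.80, 2.54 and 2.15 against 2.12, 2.30 and 2.11. Whether the fold of Ciita differed from theirs was not tested.

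The genes of proteins that work with Ciita at class II promoters, the RFX subunits, NF-Y, CREB and several coactivators, were divided. Of 11 such genes, 2 were higher in the Tfam f/f-labelled libraries, 3 were higher in the Cre-labelled ones and 6 did not pass. The median log2 difference was -0.04. Of all genes, 24.9% and 21.3% were called in these directions. Rfx5, which encodes an RFX subunit, was 1.59-fold higher in the Tfam f/f-labelled libraries (adjusted p = 0.0168), a call lost without Cre-labelled replicate 1 (0.0630) or Cre-labelled replicate 2 (0.0640), and its adjusted p ran from 0.00315 to 0.0640 over the alternatives. Nfya, a subunit of NF-Y, was 1.55-fold higher in the Cre-labelled libraries, as was Kat2b, a histone acetyltransferase, by 1.56-fold. With scaling by total counts only, neither of these passed, 7 of the 11 genes were higher in the Tfam f/f-labelled libraries and 0 in the others. The count of 2 higher in the Tfam f/f-labelled libraries became 1 without replicate 1 of that label, and 0, 0 and 1 without Cre-labelled replicates 1, 2 and 3.

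Genes that process antigen, cleave Cd74 or turn over class II molecules were called in both directions. Of 12 genes, 4 were higher in the Tfam f/f-labelled libraries, 4 were higher in the others and 4 did not pass. The median log2 difference was 0.12. Of all genes, 24.9% and 21.3% were called in these directions. Ctsd and Ctsc, which encode the lysosomal proteases cathepsin D and cathepsin C, were 4.19-fold (adjusted p = 0.00127) and 3.15-fold (adjusted p = 0.000926) higher in the Tfam f/f-labelled libraries. Ctss, which encodes the cathepsin that makes the late cuts in Cd74, was 3.93-fold higher (adjusted p = 0.00921), or 2.47-fold without Tfam f/f-labelled replicate 3, and it did not pass without the filter on low counts (adjusted p = 0.0674, the alternatives starting at 7.24e-06). March8, which encodes a ubiquitin ligase that removes membrane proteins from the cell surface, was 1.85-fold higher in the Cre-labelled libraries. With scaling by total counts only, 7 of the 12 genes were higher in the Tfam f/f-labelled libraries and 1 in the others.

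Costimulators and the T cell proteins that read class II were mostly on the members' side. Of 12 genes, 8 passed the filter, 5 of these were higher in the Tfam f/f-labelled libraries, 0 in the others and 3 did not pass. Their median log2 difference was 0.73, and 24.9% of all genes were called in the members' direction. Cd86, a costimulator of antigen-presenting cells, was 2.47-fold higher (adjusted p = 0.00873). Icosl, a ligand for the T cell costimulator ICOS, was higher by 0.59 on the log2 scale (adjusted p = 0.00613). Cd4, the coreceptor that binds class II, was 4.46-fold higher (adjusted p = 0.0127), or 2.66-fold without Tfam f/f-labelled replicate 3. The count of 5 became 3 without Cre-labelled replicate 2.

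Class I presentation, which displays peptides from the cytosol to CD8 T cells, was also higher for most genes. Of 16 genes, 11 were higher in the Tfam f/f-labelled libraries, 3 were higher in the others and 2 did not pass. The median log2 difference was 0.96. Of all genes, 24.9% and 21.3% were called in these directions. Psmb10, an immunoproteasome subunit, was 2.51-fold higher (adjusted p = 0.00222), and Psme1, a proteasome activator subunit, was 1.90-fold higher (adjusted p = 0.00244). H2-T23, a nonclassical class I gene, was 1.53-fold higher in the Cre-labelled libraries (adjusted p = 0.00189) and did not pass with scaling by total counts only (adjusted p = 0.175, the alternatives starting at 1.42e-07). Under that scaling 0 of the 16 were higher in the Cre-labelled libraries. The count of 11 became 6 without Cre-labelled replicate 2 or replicate 3, and the count of 3 became 1 without Tfam f/f-labelled replicate 1 or any 1 library of the other label.

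Interferon gamma signalling is the usual inducer of Ciita outside professional antigen-presenting cells. Ifng itself was below the filter. Of 14 genes tested, 2 were higher in the Tfam f/f-labelled libraries, 0 in the others and 12 did not pass. The median log2 difference was 0.46. Of all genes, 24.9% and 21.3% were called in these directions. Irf1, a transcription factor that acts on a Ciita promoter, was 2.00-fold higher (adjusted p = 0.00557), and Ifngr2, a chain of the interferon gamma receptor, was 1.66-fold higher (adjusted p = 0.00694). The count of 2 became 7 without Tfam f/f-labelled replicate 2, 4 with upper quartile factors and 11 with scaling by total counts only.

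**Figure D4:**
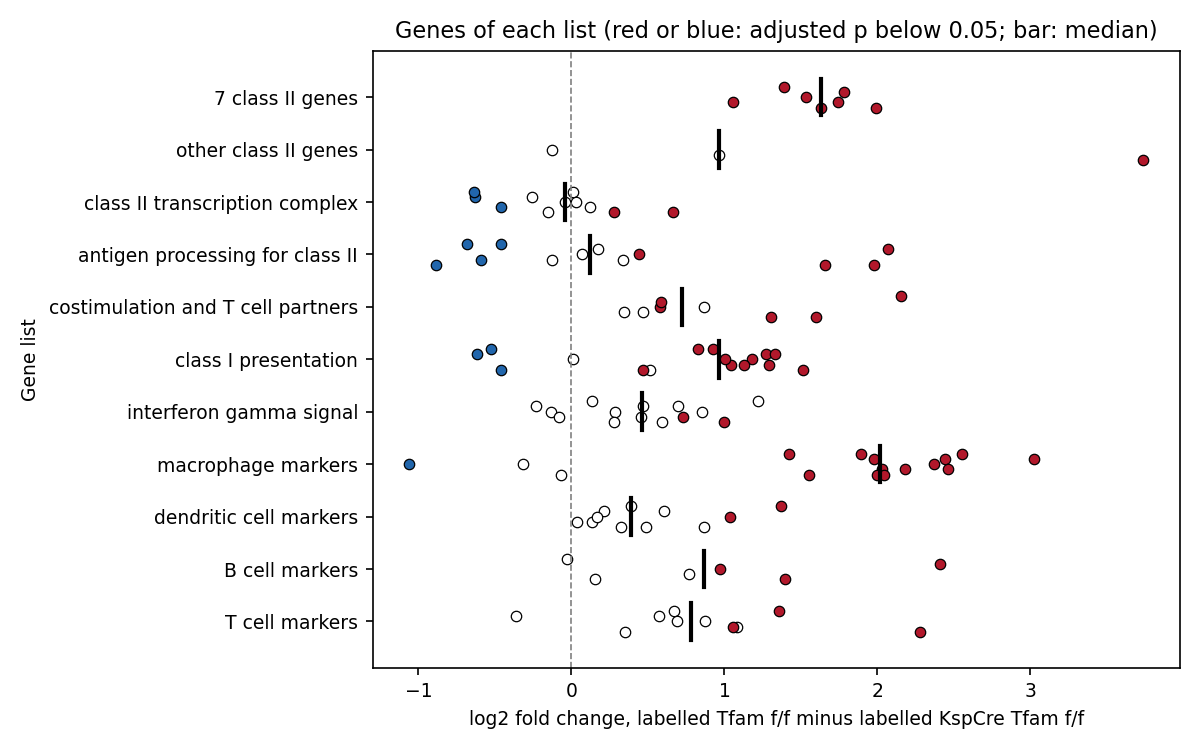
Fitted log2 difference, labelled Tfam f/f minus labelled KspCre Tfam f/f, of every tested gene in 11 gene lists, with red points for genes called higher in labelled Tfam f/f, blue for genes called higher in labelled KspCre Tfam f/f, open points for genes that did not pass and a black bar for the median. The 7 members have their median at 1.63 and the macrophage markers at 2.02, while the class II transcription complex has its median at -0.04.

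Macrophage markers were mostly higher under the same label as the members, a direction in which 24.9% of all genes were called. Of 16 macrophage markers, 13 were higher in the Tfam f/f-labelled libraries, 1 was higher in the others and 2 did not pass, with a median log2 difference of 2.02. Their summed level was 287 to 720 CPM against 258 to 276 CPM. Cd163, a scavenger receptor, was 8.13-fold higher (adjusted p = 0.00104), Cx3cr1, a chemokine receptor, was 5.17-fold higher (adjusted p = 0.00310) and Cd68, a lysosomal protein, was 4.09-fold higher (adjusted p = 0.00258). Mertk, a receptor for dying cells, was 2.08-fold higher in the Cre-labelled libraries. The count of 1 in that direction became 3 without Tfam f/f-labelled replicate 3. The count of 13 in the other direction ran from 9 to 13 over the alternatives. Without the filter on low counts C1qa, C1qb, C1qc and Lyz2 did not pass (adjusted p = 0.0564, 0.0662, 0.0599 and 0.0543, edgeR).

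Other leukocyte markers were low in level, and none of the macrophage, dendritic, B or T cell markers was at 0 in all 6 libraries. For the lists below, the background was the 24.9% of all genes called higher in the Tfam f/f-labelled libraries. Of 11 dendritic cell markers, 2 were higher in the Tfam f/f-labelled libraries, 0 in the others and 9 did not pass, with summed levels of 33.6 to 43.5 CPM against 26.7 to 31.8 CPM. This count became 0 without Cre-labelled replicate 2 or replicate 3 and 6 with scaling by total counts only. Of 10 B cell markers 6 were tested, 3 were higher and 3 did not pass, Cd22 by 5.30-fold, with sums of 6.38 to 10.99 CPM against 3.73 to 4.99 CPM. The B cell count became 1 without Tfam f/f-labelled replicate 3 or without Cre-labelled replicate 1 or 2. Of 10 T cell markers 3 were higher, 0 were lower and 7 did not pass, Lck, the kinase bound to CD4, by 4.84-fold, with sums of 14.3 to 25.6 CPM against 8.12 to 9.20 CPM. The T cell count became 6 without Tfam f/f-labelled replicate 2, 1 without Cre-labelled replicate 2 or 3 and 8 with scaling by total counts only. Ptprc, which marks all leukocytes, stood at 15.4, 22.3 and 28.3 CPM against 17.4, 13.0 and 12.7 CPM. Its libraries overlapped and it did not pass (adjusted p = 0.0612), but it did without Tfam f/f-labelled replicate 1 (1.74-fold, adjusted p = 0.0242), with upper quartile factors (0.0440) and with scaling by total counts only (0.00866).

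Kidney epithelial markers went the other way. Of 15 such genes, 11 were higher in the Cre-labelled libraries, 1 was higher in the Tfam f/f-labelled ones and 3 did not pass, with summed levels of 5612 to 13012 CPM in the Tfam f/f-labelled libraries and 22090 to 22675 CPM in the others. Slc4a1, the anion exchanger of intercalated cells, was 9.07-fold higher in the Cre-labelled libraries, and Umod, the main protein of the thick ascending limb, was 2.78-fold higher. The count of 11 became 5 without Tfam f/f-labelled replicate 1, 6 without any 1 library of the other label and 7 with scaling by total counts only. Of all genes, 21.3% were called higher in the Cre-labelled libraries. What part these shifts in cell type markers and in depth had in the class II differences was not tested.

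The members were then set against these markers within each library. Their summed CPM was 3.31, 2.11 and 2.50 times that of the 16 macrophage markers in the Tfam f/f-labelled libraries. In the others it was 1.57, 1.25 and 1.23 times, without overlap, a difference of 0.95 on the log2 scale. The marker sum was weighted by Csf1r and Mertk, which averaged 63.9 and 45.3 CPM in the Tfam f/f-labelled libraries. In the others they averaged 79.7 and 94.6 CPM, out of a marker sum of 258 to 276 CPM. Neither gene passed the test in the members' direction, while 13 of the 16 markers did. Against only Adgre1, Cd68, C1qa, C1qb and C1qc, which are more restricted to macrophages, the multiples were 9.62, 7.75 and 7.10 and 9.46, 8.39 and 8.83. These overlapped, and their difference turned to -0.13 on the log2 scale. Taken singly against these 5 markers, Ciita, H2-Eb1 and H2-Aa were lower in every Tfam f/f-labelled library than in any Cre-labelled one, with differences of -0.77, -0.34 and -0.27. Ciita stood at 0.0973, 0.1095 and 0.0784 times the markers against 0.177, 0.148 and 0.160 times. The ratios of H2-Ab1, H2-DMa, H2-DMb1 and Cd74 overlapped, with differences from -0.44 for H2-DMb1 to 0.07 for Cd74. Per Ptprc the members stood at 80.2, 27.2 and 63.6 times against 24.8, 25.2 and 24.9 times, without overlap, Tfam f/f-labelled replicate 2 lying close to the other group. Per dendritic cell marker they stood at 36.6, 14.0 and 45.1 times against 13.6, 12.0 and 11.9 times, and the groups did not overlap. Ratios per B cell or T cell marker overlapped.

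**Figure D5:**
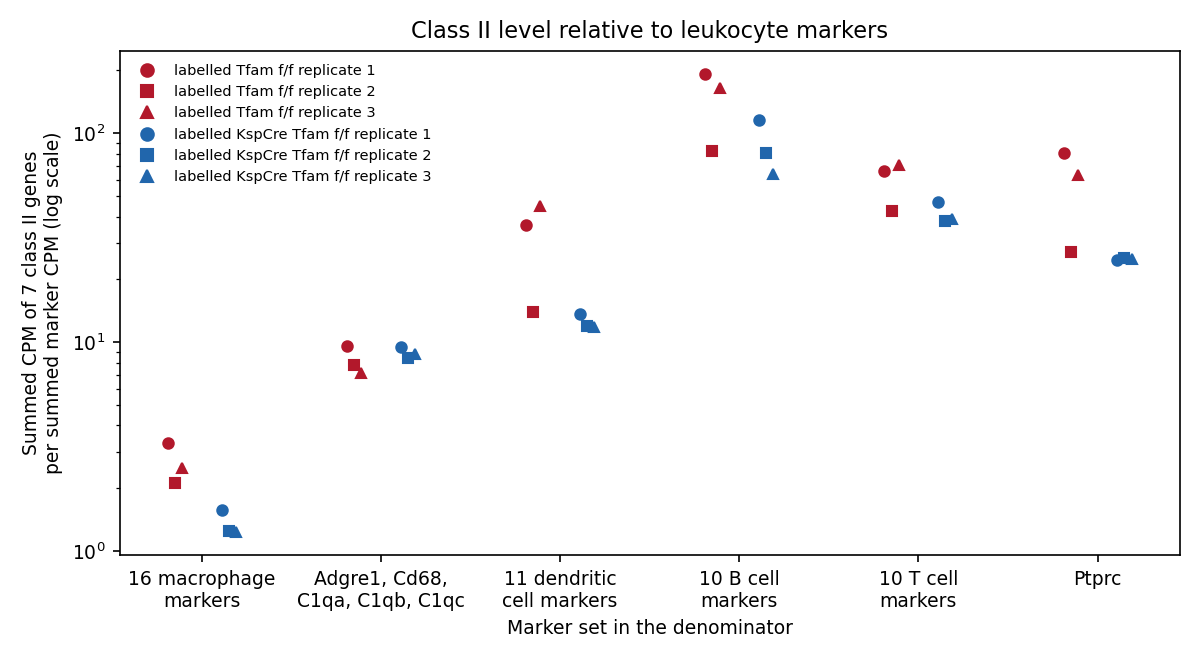
Summed CPM of the 7 members divided by the summed CPM of each marker set, on a log scale, with 1 symbol per library, red for labelled Tfam f/f and blue for labelled KspCre Tfam f/f. The red symbols lie above the blue ones for the 16 macrophage markers, while for the 5 restricted macrophage markers both colours lie between 7.10 and 9.62.

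The genes whose levels over the 6 libraries were most like the members' mean profile were sought among 11755 genes. The measure was the root mean square distance of centred log2 CPM, by which the members themselves lay 0.071 (H2-Eb1) to 0.28 (Ciita) from their mean. The nearest 8 genes were H2-K1 (distance 0.105, Pearson r 0.994), Fga, Psmb8, Sh3bgrl3, Stap2, Lxn, Jun and Fcer1g (0.174, r 0.980). These correlations run over 6 libraries whose label and mean depth differ together, so they are given as descriptions with no test. The genes were picked for a profile like that of the members, so their direction and rough fold followed from that choice. H2-K1, a classical class I heavy chain, was 2.86-fold higher in the Tfam f/f-labelled libraries. Psmb8, an immunoproteasome subunit encoded within the class II region on chromosome 17, was 2.45-fold higher, a call lost without Cre-labelled replicate 2 (adjusted p = 0.0528) or Cre-labelled replicate 3 (0.0526), with 0.000354 as the lowest adjusted p over the alternatives. Fcer1g, the signalling chain of Fc receptors, was higher by 1.58 on the log2 scale, and its call was lost without the same libraries (0.0529 and 0.0540).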

How the data were processed

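RNA of whole kidneys was sequenced as poly A+ selected, strand-specific 2*150-bp libraries, per the labels' protocols. The authors deposited whole-number read counts per gene, 1 table per library. The submitters' processing notes name FastQC, Trim Galore, STAR 2.4.1d, HTSeq 0.11.0 and the build mm10; settings, annotation and strand option were not given in the sources used here. HTSeq's summary lines entered neither library sizes nor tests. They were 16.0% to 17.7% of the total in Tfam f/f-labelled tables and 19.5% to 20.4% in Cre-labelled ones. From the counts, edgeR 4.0.16 (R 4.3.3) computed TMM factors, CPM and a quasi-likelihood test with Benjamini-Hochberg adjustment over 17308 genes kept by its expression filter (minimum count 10, minimum total count 15). Group comparisons used the 3 libraries of each label. TPM used merged exon lengths of GENCODE M21 (mm10). limma 3.58.1 and DESeq2 1.42.0 gave alternatives. Simulated counts had 65, 65 and 66 of 17032 genes changed by 1.5-fold, 2-fold and 4-fold. The fit recovered 15.4%, 61.5% and 87.9% of them. With so few changed genes the adjustment is stricter than in the data, where 8000 genes passed. These shares are therefore not the recovery in the data, and genes that did not pass may still differ. Depth was 19024208 to 48899266 counts per library, and intervals cover the fitted spread. The edgeR fit used a single dispersion per gene for both labels, although the Tfam f/f-labelled libraries varied more among themselves. Between pairs of libraries, chi-square per degree of freedom was 63.1 to 164 within that label and 7.09 to 11.7 within the other. The 7 genes and all lists were chosen with earlier results of these data known. Named genes were all members, Tfam, the other class II genes, up to 3 called genes of smallest p per list with further list genes where 5 or fewer were counted in a direction, and the 8 nearest genes. Further list genes were named to describe marker sums, ratios or scaling. Of the remaining lists, neutrophil markers had 2 of 2 tested genes higher in the Tfam f/f-labelled libraries, and endothelial markers 0 of 8, with 1 of 8 higher in the others. Of all genes, 24.9% and 21.3% were called in these directions. Of 7 neutrophil genes listed, 6 were found and 4 of these were below the filter. Their count of 2 ran from 0 to 4 over the alternatives. The groups overlapped for S100a9, at 0.500 CPM in Tfam f/f-labelled replicate 2 and 0.516 CPM in Cre-labelled replicate 1.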

Additional observations from a re-analysis of the deposited data

How the results depend on the processing

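Each choice was changed 1 at a time. Tfam and 6 members kept direction and call under every alternative run, with adjusted p up to 0.0465 (H2-Aa). Ciita lost its call with limma voom (log2 -0.92, KspCre Tfam f/f minus Tfam f/f) and ranged from -1.27 to -0.68 when 1 library was left out. The class II sum per macrophage marker, -0.95 in that direction, became 0.13 with the 5 restricted markers and ran from -1.10 to -0.78 over left-out libraries. Replicate numbers did not pair the libraries: same-number correlations of deviations were -0.17, -0.07 and -0.07, and not every library correlated best with its own number. With the replicate block 6813 genes passed in place of 8000, and counts became 1 for the transcription complex (higher in labelled Tfam f/f), 1 for class I (higher in Cre-labelled libraries), 1 for neutrophil markers and 2 for endothelial markers. Upper quartile factors put the median log2 difference of all genes at -0.10 and gave 4 interferon gamma and 4 dendritic cell genes. With scaling by total counts only, 8512 genes were higher in the Tfam f/f-labelled libraries and 1680 in the others, and list counts were 2 (other class II), 7 and 0 (transcription complex), 7 and 1 (antigen processing), 0 (class I, higher in Cre-labelled libraries), 11 (interferon gamma), 6 (dendritic cell), 8 (T cell) and 7 (epithelial, higher in Cre-labelled libraries). Size factors of DESeq2 within edgeR gave 1 interferon gamma gene higher in Cre-labelled libraries, and DESeq2 itself gave 1 gene of the transcription complex. Without the filter the counts were 0 (other class II), 1 (transcription complex), 4 (neutrophil) and 6 (epithelial), and with a CPM above 1 neutrophil markers gave 1. With limma voom other class II and neutrophil counts were 0. Leaving out 1 library, counts higher in labelled Tfam f/f ran from 2822 to 4942 (all genes), 6 to 7 (members), 1 to 2 (other class II), 0 to 2 (transcription complex), 3 to 6 (costimulation), 6 to 12 (class I), 2 to 7 (interferon gamma), 0 to 3 (dendritic cell), 1 to 3 (B cell), 1 to 6 (T cell), 0 to 4 (neutrophil) and 0 to 2 (epithelial). Those higher in Cre-labelled libraries ran from 2276 to 4652 (all genes), 1 to 3 (class I), 0 to 1 (interferon gamma), 1 to 3 (macrophage), 1 to 8 (endothelial) and 5 to 12 (epithelial). Macrophage markers higher in labelled Tfam f/f ran from 11 to 13 over left-out libraries and from 9 to 13 over all alternatives. The causes were not tested.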

Other observations

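The balance between the copies of the H2-DM beta chain differed between libraries. Per exon length, H2-DMb2 stood at 0.315, 0.147 and 0.679 of H2-DMb1 in the Tfam f/f-labelled libraries and at 0.0884, 0.0682 and 0.0877 in the Cre-labelled ones. The groups did not overlap, and Tfam f/f-labelled replicate 3 stood apart. How reads that fit both copies were counted was not given, so these ratios are uncertain.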
